A study of Mus musculus with 12 samples.

Results

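A set of 6 mature microRNAs of blood vessel walls, miR-126a-5p, miR-126a-3p, miR-221-3p, miR-222-3p, miR-143-3p and miR-145a-5p, was followed through ventricular heart tissue of 12 mice. They were taken by their miRBase accession numbers (probe sets MIMAT0000137_st, MIMAT0000138_st, MIMAT0000669_st, MIMAT0000670_st, MIMAT0000247_st and MIMAT0000157_st, in the same order), as 6 of the 1908 mature miRNA probe sets on the array, by a rule that uses no measured value. The accessions were paired with these names by the list that defined the set, since the deposited table holds accessions only. The 4 groups had 3 mice each. They were Clock mutant mice (Clock delta 19/delta 19) at 21 months, wild-type mice at 21 months, Clock mutant mice at 4 months and wild-type mice at 4 months. The mice all had the C57Bl/6J background and were killed at ZT 6, that is 6 hours after lights on. CLOCK drives transcription in the circadian feedback loop, and the mutant protein still binds its partner but activates transcription poorly. Replicates are biological per the labels, and each array is taken here to stand for 1 animal.

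A microRNA is cut from a hairpin precursor and guides a silencing complex to messenger RNAs, mainly through pairing of its seed, bases 2 to 8. The hairpin of miR-126a lies within Egfl7, an endothelial gene, and is itself expressed chiefly by endothelial cells, where miR-126a-3p supports vascular growth factor signalling by repressing its inhibitors Spred1 and Pik3r2. miR-221 and miR-222 are made by endothelial and smooth muscle cells and also by others. They repress Kit and the cell cycle inhibitor Cdkn1b, and are known for opposite effects on growth in these cell types, restraining endothelial cells and promoting smooth muscle proliferation. miR-143 and miR-145a lie together within the long non-coding RNA gene Carmn, and maintain the contractile state of vascular smooth muscle under the control of serum response factor and myocardin.

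The 3 mature sequences held by the RefSeq table (build GRCm38.p6) are shown because they set apart the pair that shares a seed from the one that does not. The seed is in capitals.
miR-126a-3p: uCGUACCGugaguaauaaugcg
miR-221-3p: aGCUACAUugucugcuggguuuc
miR-222-3p: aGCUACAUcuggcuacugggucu

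miR-126a-3p lies at chr2:26591402-26591423 on the plus strand. miR-221-3p lies at chrX:19146307-19146329 and miR-222-3p at chrX:19146901-19146923, both on the minus strand, in hairpins separated by 504 bases and spanned by no other annotated gene in that table. The mature miR-221-3p and miR-222-3p have the same first 8 bases, so they share a seed. Set side by side without gaps, they match at 11 of 23 positions. This count does not measure their likeness beyond the seed, since an inserted base shifts all later positions. Among the 1679 mature miRNAs of the RefSeq table, the seed GCUACAU occurred in 3, these and miR-1928, and the seed CGUACCG in miR-126a-3p alone. The hairpin of miR-126a is given with its 3p strand in capitals, since both strands of this hairpin were measured.
Mir126a hairpin: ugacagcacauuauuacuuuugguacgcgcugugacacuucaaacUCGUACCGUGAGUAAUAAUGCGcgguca

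Values are levels on a scale taken as log2, each relative to the median of that probe set over the 12 arrays. They show how a miRNA differed between hearts, but hold no absolute signal, so levels of different miRNAs cannot be compared and none could be checked against background. The genotype labels, and the ventricular origin of the RNA, could not be checked against marker genes. The array measures miRNAs only, and apart from the members its accessions could not be paired with names. In whole ventricle, fewer vessel cells and less of a miRNA per cell cannot be told apart. The array medians over mature probe sets lay between -0.020 and 0.030. Among the young hearts, 3 (Clock 4-month replicates 2 and 3, and wild-type 4-month replicate 2) stood apart on the first principal component, at -10.7 to -14.0 against -1.73 to 8.68 on the other 9 arrays. Clock 21-month replicate 2 stood apart on the second, at -21.0. Without the 3 young hearts, 1 young Clock heart is left, and the limma fit then takes its spread from the other groups.

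None of the 6 vascular miRNAs passed the test in any of 7 comparisons by genotype or age (limma, Benjamini-Hochberg adjusted p under 0.05 over the 1908 mature probe sets). The one with the largest difference was miR-221-3p, which was 1.37-fold lower in Clock than in wild-type hearts at 4 months, without passing the adjustment. miR-126a-3p, miR-143-3p and miR-145a-5p varied little among the 12 hearts, whatever the genotype or age.

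The spread over all 12 arrays separated the members. miR-145a-5p had an SD of 0.060, below all but 0.524% of the mature probe sets. The SD of miR-143-3p was 0.078 (percentile 0.734) and that of miR-126a-3p was 0.092 (percentile 1.26). These 3 were thus among the least variable measurements on the array. miR-222-3p, at an SD of 0.17, stood at percentile 13.9. miR-126a-5p had an SD of 0.21 (percentile 29.6) and miR-221-3p one of 0.24 (percentile 41.0), still under the median SD of all mature probe sets, 0.27. Within groups, the SD of miR-221-3p was only 0.12 (percentile 6.03), so about as small as that of miR-222-3p (0.13, percentile 7.08). A low spread on this scale is a property of the probe set's values, and whether it came with high or low signal could not be seen.

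**Figure D1:**
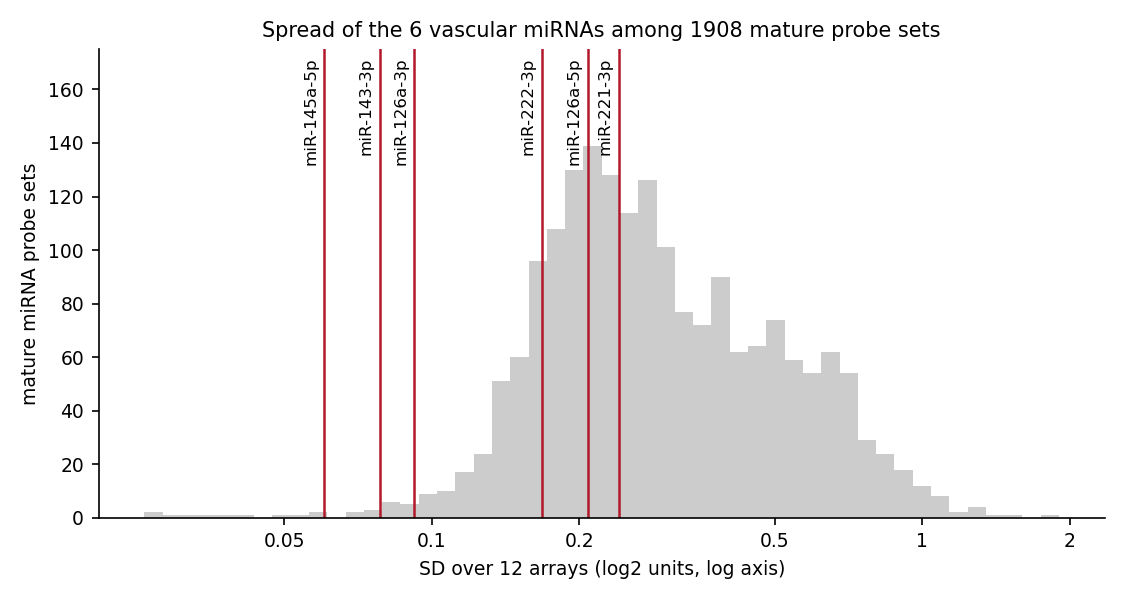
Histogram of the SD over 12 arrays (log2 units, log axis) of the 1908 mature miRNA probe sets, with a red line at each vascular miRNA. miR-145a-5p, miR-143-3p and miR-126a-3p sit in the low tail, at 0.060, 0.078 and 0.092, and miR-222-3p, miR-126a-5p and miR-221-3p lie in the body of the distribution.

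Of the endothelial set, the strands of miR-126a come first. The abundant guide strand in most tissues is miR-126a-3p. It was at -0.046, -0.21 and 0.082 in the 21-month Clock hearts, and at -0.052, -0.013 and -0.034 in the 21-month wild-type hearts. It was at -0.12, 0.013 and 0.12 in the 4-month Clock hearts, and at 0.020, 0.089 and 0.022 in the 4-month wild-type hearts. The 3 wild-type hearts of 21 months all lay below the 3 of 4 months, while the 4-month Clock hearts spanned the whole range of the wild type and the 21-month Clock hearts reached below it. Groups failed to overlap between ages in wild type at 11.9% of mature probe sets. The differences were -0.041 (Clock minus wild type at 4 months, 95% interval -0.31 to 0.23), -0.024 (at 21 months, -0.29 to 0.24), -0.077 (21 minus 4 months in wild type, -0.35 to 0.19) and -0.060 (in Clock, -0.33 to 0.21). Without the 3 outlying young hearts the first of these was -0.14 and the last 0.066, and without Clock 21-month replicate 2 the second was 0.051 and the last 0.015. In order of group means, miR-126a-3p was lowest in Clock at 21 months, then wild type at 21 months, Clock at 4 months and wild type at 4 months. No neighbours in this order differed by more than the larger of their SDs (0.12 to 0.15).

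The other strand, miR-126a-5p, which in mouse endothelium supports proliferation by repressing Dlk1, scattered more. It was at -0.030, -0.014 and 0.014 in 21-month Clock hearts, and at 0.41, -0.26 and 0.11 in 21-month wild-type hearts. At 4 months it was at -0.26, -0.078 and 0.25 in Clock hearts, and at -0.077, 0.30 and 0.14 in wild-type hearts. No 2 groups separated. The SD was 0.022 in 21-month Clock hearts and 0.33, 0.26 and 0.19 in the others. Its group means ran from -0.029 to 0.12, and no neighbours in their order differed by more than the larger of their SDs. Averaged over ages, Clock minus wild type was -0.12 (SE 0.14, 95% interval -0.42 to 0.17, adjusted p = 0.86, limma). Averaged over genotypes, 21 minus 4 months was -0.0082 (SE 0.14, 95% interval -0.31 to 0.29, adjusted p = 0.988, limma). These were -0.19 and 0.15 without the 3 outlying young hearts. miR-126a-5p had the same non-zero value, -0.26, to all digits deposited, in Clock 4-month replicate 1 and wild-type 21-month replicate 2, a kind of tie that 11.5% of mature probe sets showed.

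**Figure D2:**
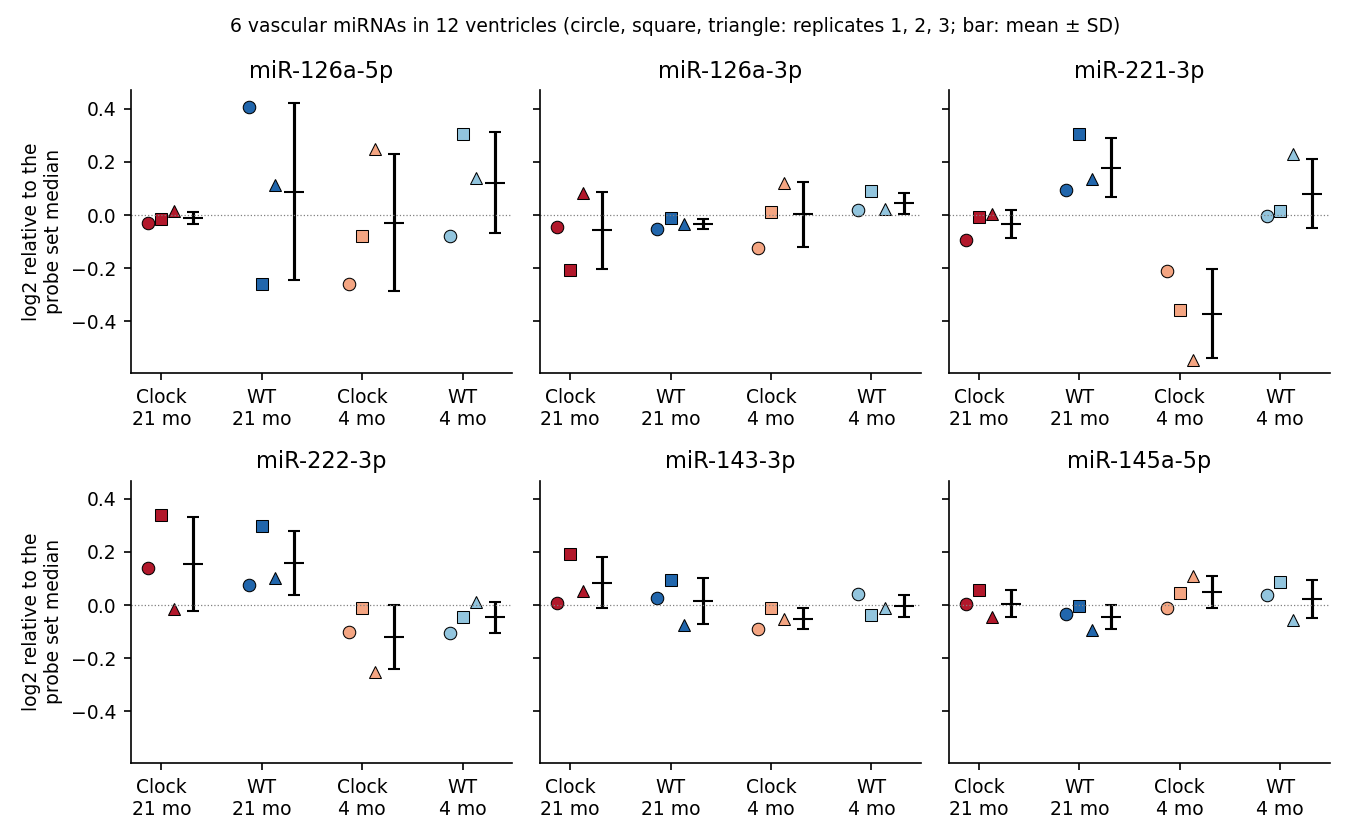
Level of each miRNA (log2, relative to its median over 12 arrays) in every heart, by group. Symbols mark replicates 1, 2 and 3 and bars the mean ± SD (n = 3). The 3 Clock hearts of 4 months, at -0.21 to -0.55, lie below all other hearts for miR-221-3p, while miR-126a-3p, miR-143-3p and miR-145a-5p stay between -0.21 and 0.19.

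miR-221-3p was at -0.095, -0.0091 and 0.0029 in the 21-month Clock hearts, against 0.094, 0.30 and 0.14 in the 21-month wild-type hearts. At 4 months it was at -0.21, -0.36 and -0.55 in Clock hearts, against -0.0029, 0.015 and 0.23 in wild-type hearts. Every Clock heart thus lay below every wild-type heart of its age, and the young Clock hearts were the lowest of all. Group means were -0.034 ± 0.053 in Clock and 0.18 ± 0.11 in wild type at 21 months, and -0.37 ± 0.17 in Clock and 0.081 ± 0.13 in wild type at 4 months (SD, n = 3 each). In the order Clock 4 months, Clock 21 months, wild type 4 months and wild type 21 months, only the first step, of 0.34, exceeded the larger SD of its neighbours (0.17), and it was the only one where neighbours did not overlap.

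The genotype difference of miR-221-3p at 4 months was -0.45 (SE 0.13, 95% interval -0.74 to -0.16), or 1.37-fold lower in Clock. Its unadjusted p was 0.00612, the 16th smallest of 1908, and its adjusted p 0.73 (limma). It was the only member of 6 with an unadjusted p under 0.05 in this contrast, where 6.03% of mature probe sets had one and 0% passed adjustment. With any single array left out, the difference was between -0.53 and -0.36. Without the 3 outlying young hearts it was -0.32 (unadjusted p = 0.161, limma), from fewer arrays and with 1 young Clock heart.

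At 21 months the difference of miR-221-3p was -0.21 (SE 0.13, 95% interval -0.51 to 0.081, unadjusted p = 0.139, adjusted p = 0.85, limma). No member had an unadjusted p under 0.05 there, against 5.87% of mature probe sets. Averaged over ages, it was -0.33 (SE 0.094, 95% interval -0.54 to -0.12), or 1.26-fold lower in Clock. The unadjusted p was 0.00483, the 21st smallest, and the adjusted p 0.439 (limma), with unadjusted p under 0.05 at 6.13% of mature probe sets and 0% called. It was -0.27 (unadjusted p = 0.0656, limma) without the 3 outlying young hearts. The Clock hearts lay below the wild-type hearts without overlap at each age for 17 probe sets of 1908, 0.891%, of which miR-221-3p was 1. Pooled over ages its genotypes overlapped, with 1 old Clock heart at 0.0029 and 1 young wild-type heart at -0.0029. Genotypes pooled in this way did not overlap at 0.524% of mature probe sets.

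With age, miR-221-3p was 0.34 higher at 21 months than at 4 months in Clock (SE 0.13, 95% interval 0.044 to 0.63, unadjusted p = 0.028, adjusted p = 0.426, limma), or 1.26-fold. In wild type it was 0.098 higher (SE 0.13, 95% interval -0.20 to 0.39, unadjusted p = 0.476, adjusted p = 0.934). An unadjusted p under 0.05 was found for miR-221-3p alone of 6 members in Clock (9.85% of mature probe sets) and for 0 of 6 in wild type (5.61%). The interaction, Clock minus wild type, was 0.24 (SE 0.19, 95% interval -0.18 to 0.65, unadjusted p = 0.23, adjusted p = 0.984, limma). Its interval included 0, and 0 of 6 members had an unadjusted p under 0.05 for it, beside 4.19% of mature probe sets. Without the 3 outlying young hearts, which takes away the 2 lowest values of miR-221-3p, the age difference was 0.18 in Clock (unadjusted p = 0.398, limma, 1 young Clock heart) and 0.065 in wild type, and the interaction 0.11. Without Clock 21-month replicate 2 the age difference in Clock was 0.32 (unadjusted p = 0.0554, limma).

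miR-222-3p, which shares its seed with miR-221-3p, had its higher group means in the old hearts of both genotypes. It was at 0.14, 0.34 and -0.017 in 21-month Clock hearts, and at 0.076, 0.30 and 0.10 in 21-month wild-type hearts. At 4 months it was at -0.10, -0.011 and -0.25 in Clock hearts, and at -0.10, -0.044 and 0.011 in wild-type hearts. The old hearts lay above the young ones in wild type without overlap, and in Clock 1 old heart (-0.017) lay just below 1 young heart (-0.011). Group means were 0.15 ± 0.18 in Clock and 0.16 ± 0.12 in wild type at 21 months, and -0.12 ± 0.12 in Clock and -0.046 ± 0.057 in wild type at 4 months (SD, n = 3 each). Of the steps between neighbouring groups, only that between wild type at 4 months and Clock at 21 months (0.20) exceeded the larger SD (0.18).

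Averaged over genotypes, miR-222-3p was 0.24 higher at 21 months than at 4 months (SE 0.095, 95% interval 0.029 to 0.45), or 1.18-fold, with an unadjusted p of 0.029 and an adjusted p of 0.377 (limma). miR-221-3p was 0.22 higher (SE 0.094, 95% interval 0.010 to 0.42, unadjusted p = 0.0413, adjusted p = 0.421). These were the only members of 6 with an unadjusted p under 0.05 in this contrast, where 11% of mature probe sets had one and 0.105% were called. After quantile normalization neither p was under 0.05. miR-222-3p was then 0.19 higher (unadjusted p = 0.0615) and miR-221-3p 0.15 higher (unadjusted p = 0.11, limma). When the 3 outlying young hearts were left out, miR-222-3p was 0.23 higher (unadjusted p = 0.131) and miR-221-3p 0.12 higher (unadjusted p = 0.365, limma). With any single array left out, miR-222-3p was 0.19 to 0.28 higher (unadjusted p = 0.0158 to 0.0707) and miR-221-3p 0.17 to 0.26 higher (unadjusted p = 0.0243 to 0.101, limma). No member's old and young hearts were fully separate here, as those of 1.26% of mature probe sets were. By age in each genotype, miR-222-3p differed by 0.27 in Clock (SE 0.13, adjusted p = 0.541, limma) and by 0.20 in wild type (SE 0.13, adjusted p = 0.86). Without Clock 21-month replicate 2, which held the highest value of miR-222-3p, the Clock difference was 0.18 (unadjusted p = 0.213, limma). Its genotype differences were -0.074 at 4 months (95% interval -0.37 to 0.22) and -0.0051 at 21 months (95% interval -0.30 to 0.29). The first was -0.0092 without Clock 4-month replicate 3 and -0.13 without Clock 4-month replicate 2.

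Within each array, miR-221-3p minus miR-222-3p is free of any factor that scales the whole array. It was -0.23, -0.35 and 0.019 in 21-month Clock hearts, and 0.018, 0.0082 and 0.034 in 21-month wild-type hearts. At 4 months it was -0.11, -0.35 and -0.30 in Clock hearts, and 0.10, 0.059 and 0.22 in wild-type hearts. At 4 months every Clock heart lay below every wild-type heart, and at 21 months 1 Clock heart (0.019) lay within the wild-type values. How often other pairs of probe sets separate in this way was not computed. Of single mature probe sets, 11.1% had genotypes that did not overlap at 4 months. The miR-221-3p values given above are part of this difference, so it is not a separate result. The zero of this difference is set by the medians and has no meaning of its own.

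**Figure D3:**
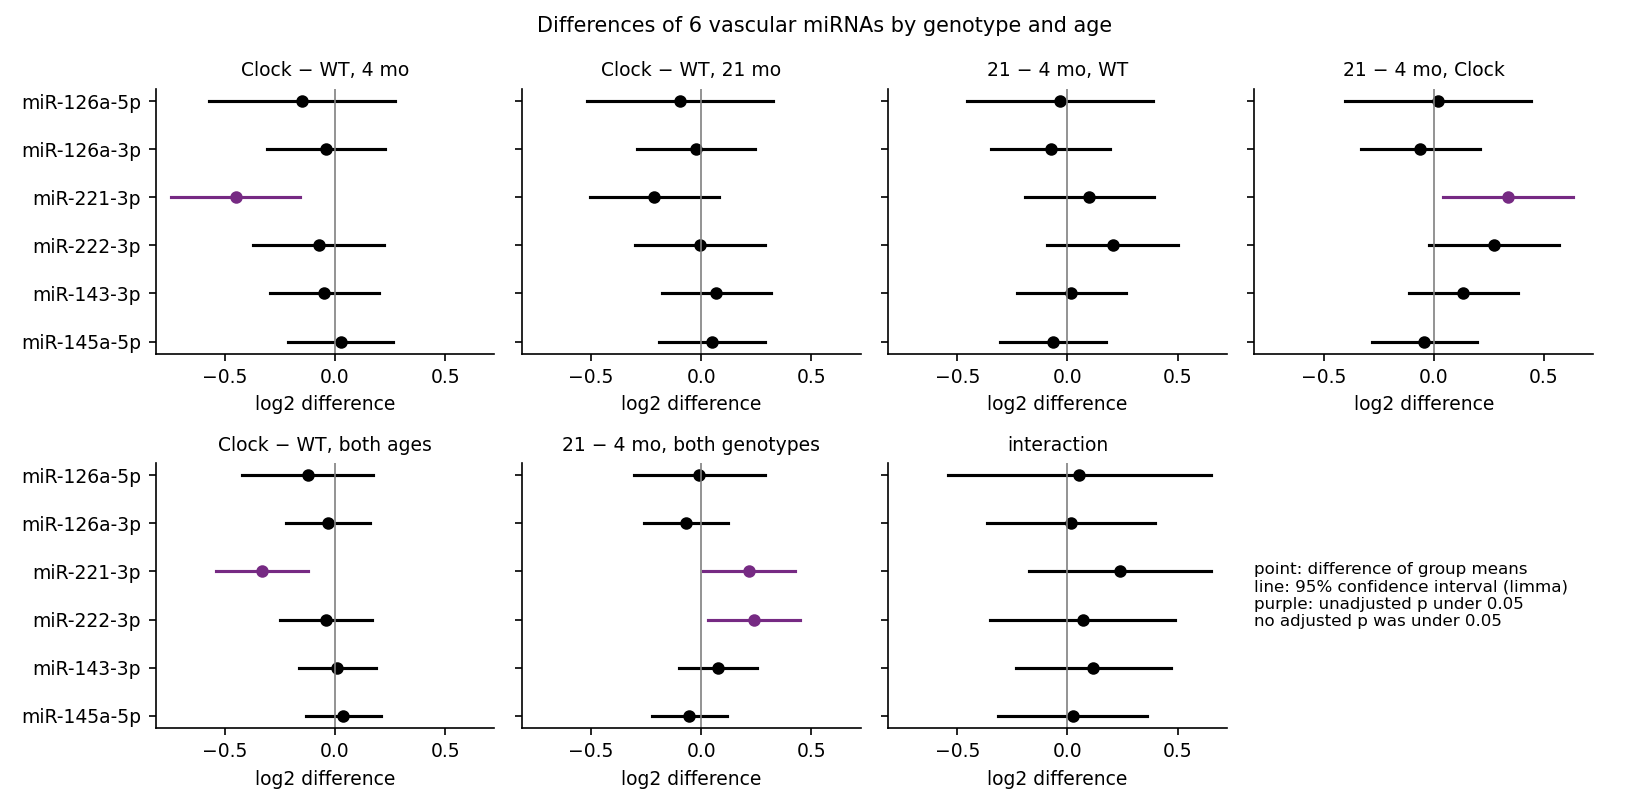
Difference of group means (points, log2) and 95% confidence interval from limma (lines) for each of 6 vascular miRNAs in 7 comparisons. Purple marks an unadjusted p under 0.05, which occurs for miR-221-3p in 4 comparisons and for miR-222-3p in 1, and no adjusted p was under 0.05.

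Of the smooth muscle miRNAs, miR-143-3p, which represses Elk1 among others, was at 0.0092, 0.19 and 0.051 in 21-month Clock hearts, and at 0.028, 0.093 and -0.076 in 21-month wild-type hearts. At 4 months it was at -0.089, -0.0092 and -0.054 in Clock hearts, and at 0.043, -0.038 and -0.010 in wild-type hearts. In Clock, every old heart lay above every young one, and 14.8% of mature probe sets had ages that did not overlap there. The highest value, 0.19, belonged to Clock 21-month replicate 2, the array that stood apart on the second component. The age difference in Clock was 0.13 (SE 0.11, 95% interval -0.11 to 0.38, unadjusted p = 0.255, adjusted p = 0.764, limma), and it was 0.081 without that array (unadjusted p = 0.506). In wild type it was 0.017 (SE 0.11, 95% interval -0.23 to 0.26). In order of group means from Clock 4 months (-0.051) to Clock 21 months (0.084), only the step from Clock to wild type at 4 months (0.049) exceeded the larger SD (0.041), and those groups overlapped.

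miR-145a-5p, which represses the transcription factor Klf4, varied least. It was at 0.0026, 0.058 and -0.044 in 21-month Clock hearts, and at -0.035, -0.0026 and -0.092 in 21-month wild-type hearts. At 4 months it was at -0.011, 0.044 and 0.11 in Clock hearts, and at 0.037, 0.085 and -0.054 in wild-type hearts. All groups overlapped in each comparison, and no neighbours in the order of means (-0.043 to 0.048) differed by more than the larger SD. Averaged over genotypes, the age difference was -0.054 (SE 0.077, 95% interval -0.22 to 0.12, adjusted p = 0.841, limma). Averaged over ages, the genotype difference was 0.037 (SE 0.077, 95% interval -0.13 to 0.21, adjusted p = 0.943). These were -0.0089 and 0.024 without the 3 outlying young hearts.

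The intervals show how large a difference in the array values the data leave room for. Signal over background is unknown here, so they do not bound the change in the miRNA itself. For all 6 members the intervals lay within a 2-fold change either way in each of 7 contrasts. Such intervals were found for 74% to 77.6% of mature probe sets in the 4 contrasts of 2 groups. The shares were 90.1% for genotype averaged over ages, 87.5% for age averaged over genotypes and 58.1% for the interaction. A 1.5-fold change either way, 0.58 on the log2 scale, was outside the interval for 6 of 6 members in 4 contrasts. These were Clock against wild type at 21 months and averaged over ages, and 21 against 4 months in wild type and averaged over genotypes, where 42.2%, 65.6%, 41.4% and 64.2% of mature probe sets gave such an interval. For Clock against wild type at 4 months and for age in Clock it was 5 of 6, with miR-221-3p the exception, and for the interaction 4 of 6, beside 41.2%, 39.8% and 13% of mature probe sets. The limma errors of the least variable members are wide for their own spread, since the moderated residual SD borrows from all probe sets. It was 0.133 for miR-145a-5p, whose own within-group SD was 0.058.

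The differences of the 6 members can be set beside those of all mature probe sets. The median size of their difference was 0.062 for Clock against wild type at 4 months and 0.059 at 21 months, where the medians over all mature probe sets were 0.16 and 0.16. For 21 against 4 months it was 0.098 in Clock and 0.071 in wild type, beside 0.18 and 0.16 over all. Groups did not overlap for 1 of 6 members by genotype at 4 months (11.1% of mature probe sets) and for 1 of 6 at 21 months (10.9%), miR-221-3p each time. By age they did not overlap for 2 of 6 in Clock (miR-221-3p and miR-143-3p, 14.8% of mature probe sets) and for 2 of 6 in wild type (miR-222-3p and miR-126a-3p, 11.9%). Of the members 0 of 6 were called in any contrast, beside 0% of mature probe sets for the genotype contrasts and the interaction, 0.0524% for age in wild type and 0.105% for age in Clock.

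No pair of members from a shared hairpin or neighbouring hairpins passed a test of correlation from heart to heart after adjustment. Arrays were permuted without regard to group, so differences between groups enter these tests together with those between hearts of a group. Over the 12 arrays, miR-221-3p and miR-222-3p had r = 0.621 (permutation p = 0.0311, adjusted p = 0.117 over 15 pairs) and Spearman's rho = 0.455 (permutation p = 0.143, adjusted p = 0.537). Without the 2 arrays farthest from the median of miR-221-3p, r was 0.411 (permutation p = 0.238), and without the 3 outlying young hearts it was 0.407 (permutation p = 0.28). After each group's mean was subtracted, r was 0.538, given as a description, as are the other r values made in this way. The strands miR-126a-5p and miR-126a-3p had r = 0.373 (permutation p = 0.231, adjusted p = 0.571) and rho = 0.364 (permutation p = 0.243, adjusted p = 0.73), with r = 0.46 (permutation p = 0.18) without the 2 farthest arrays, 0.132 (permutation p = 0.734) without the 3 outlying young hearts and 0.357 after group means were subtracted. miR-143-3p and miR-145a-5p had r = 0.136 (permutation p = 0.678, adjusted p = 0.782) and rho = 0.0909 (permutation p = 0.784, adjusted p = 0.905), with r = -0.0749 (permutation p = 0.833) without the 2 farthest arrays. For that pair r was 0.684 (permutation p = 0.0403, adjusted p = 0.352) without the 3 outlying young hearts and 0.497 after group means were subtracted, so its r depended on which hearts were used.

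Of all 15 pairs of members, 0 passed adjustment and 4 had an unadjusted permutation p under 0.05. Beside miR-221-3p with miR-222-3p, these were miR-222-3p with miR-143-3p (r = 0.706, permutation p = 0.0104; rho = 0.497, permutation p = 0.104), miR-126a-3p with miR-222-3p (r = -0.639, permutation p = 0.0256; rho = -0.608, permutation p = 0.0402) and miR-221-3p with miR-145a-5p (r = -0.622, permutation p = 0.0307; rho = -0.608, permutation p = 0.04). The adjusted p for r was 0.117 in each of these 4. Without the 2 arrays farthest from the median of the first miRNA of each pair, r was 0.229 (permutation p = 0.53), -0.744 (permutation p = 0.0114) and -0.328 (permutation p = 0.356). It was 0.667 (permutation p = 0.047), -0.462 (permutation p = 0.21) and -0.353 (permutation p = 0.353) without the 3 outlying young hearts. After each group's mean was subtracted, r was 0.597, -0.647 and -0.546.

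**Figure D4:**
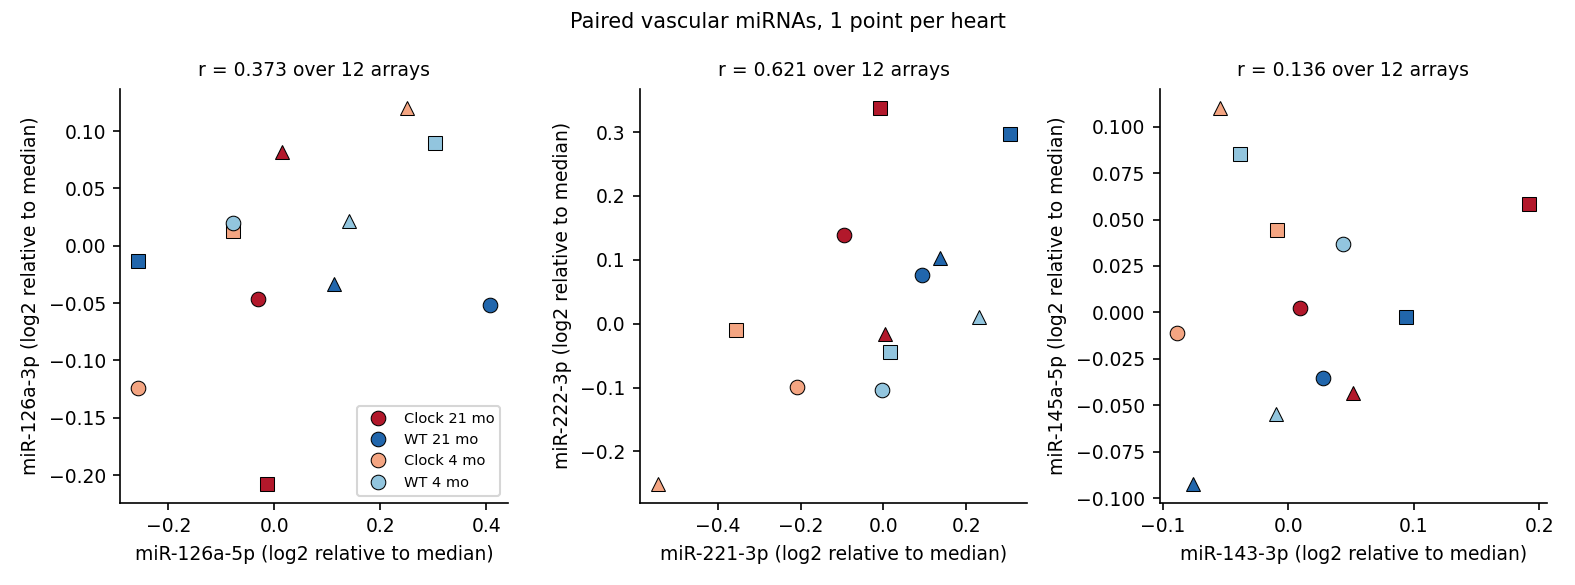
Each heart's level (log2, relative to its median) of one miRNA against its partner from the same or a neighbouring hairpin, coloured by group, with replicates 1, 2 and 3 as circle, square and triangle. The 3 Clock hearts of 4 months sit at the left of the miR-221-3p panel, where r = 0.621. In the other panels r was lower, at 0.373 for the strands of miR-126a and 0.136 for miR-143-3p with miR-145a-5p. Axes differ between panels.

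The partner strand or hairpin was not the closest match of any member. Ranked by Pearson's r over the 12 arrays among the 1907 other mature probe sets, miR-222-3p stood 76th for likeness to miR-221-3p, and miR-221-3p 94th for likeness to miR-222-3p. miR-126a-3p stood 161st for miR-126a-5p and miR-126a-5p 235th for miR-126a-3p. miR-145a-5p stood 783rd for miR-143-3p, and miR-143-3p 580th for miR-145a-5p. The closest probe sets, with r from 0.737 for miR-126a-5p to 0.919 for miR-143-3p, included no other member among the first 3 of any. For miR-221-3p the closest was MIMAT0027848_st (r = 0.876), and for miR-143-3p it was MIMAT0000144_st (r = 0.919). These r values are descriptions picked as the highest of 1907, and those accessions are not paired with names in the sources used here.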

How the data were processed

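The authors deposited 1 table, of 3163 probe sets on 12 arrays, made from biotin-labelled total RNA (500 ng, miRNeasy extraction, Affymetrix labelling, per the labels' protocols). The values the authors deposited are taken here as log2 levels. Each of the 3163 rows has a median of 0 over its 12 values, within a tolerance of 1e-06, so the authors centred each one. For the background correction, array normalization and logarithm, nothing is given in the sources used here, and the base is an assumption. Another base would change the folds and not the tests. No value was missing and every column was used.

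Group means were compared in limma 3.58.1 (R 4.3.3) over the 1908 mature probe sets on all 12 arrays (8 residual degrees of freedom, prior 2.82), in 7 contrasts, with Benjamini-Hochberg adjustment within each. No filter on signal was possible. The fit was tested on simulated data. Correlations used two-sided permutation tests with 100000 resamples (numpy 2.4.6), adjusted over 15 pairs. The members, lists and tests were chosen with earlier results of these data known. The named miRNAs were the 6 members and, for likeness, the closest probe sets. Hairpin probe sets, other miRNAs that share a seed, and lists of angiogenic, smooth muscle and other cell type miRNAs were to be described too, but 0 accessions of the table matched the reference names, so they were not analysed here. Sequences are from RefSeq, where 3 of 6 members matched by name.

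Replicate numbers are shared between groups. Same-numbered arrays of different groups had deviations from their group means that correlated at a median of 0.0145 (-0.107 to 0.116, 18 pairs). For different numbers the median was -0.00138 (-0.196 to 0.131, 36 pairs). No strong pairing by number was seen, but these correlations over all mature probe sets cannot exclude a weaker one. The main fit did not pair the samples. Precision is limited by the 3 arrays of each group. The alternatives tried were quantile normalization, centring each array on its median, array weights, a replicate block and only the groups compared. Others were hairpin probe sets fitted too, an adjusted p under 0.10, robust moderation, and leaving out each array or 3 outlying young hearts. Those 3 hearts were picked because they stood apart on the first principal component of these arrays. A fit with no variance moderation was also chosen after seeing the data.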

Additional observations from a re-analysis of the deposited data

How the results depend on the processing

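The count of vascular miRNAs called was 0 of 6 in every contrast and under every alternative run, with adjusted p no lower than 0.299 for any of the 42 member differences. Of 864 alternative values of these differences, 50 had the opposite sign. They came from 19 differences no larger than 0.098 as reported, and the cause was not tested. miR-221-3p kept its sign in all 7 contrasts.

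After quantile normalization the age difference was -0.0069 in wild type for miR-143-3p and -0.023 in Clock for miR-126a-5p. With each array centred on its median the age difference of miR-126a-5p in Clock was -0.0051. Array weights gave miR-126a-5p 0.0035 for age in wild type, -0.0020 for age in Clock, 0.00075 for age averaged over genotypes and -0.0055 for the interaction, and miR-143-3p -0.0083 for genotype averaged over ages. Without the 3 outlying young hearts, miR-126a-5p was at 0.056 for age in wild type and 0.15 for age averaged over genotypes. miR-126a-3p was at 0.066 for age in Clock and 0.0063 for age averaged over genotypes. miR-143-3p was at -0.0013 for age in wild type and -0.018 for genotype averaged over ages, and miR-145a-5p at -0.0019 for genotype at 4 months and 0.017 for age in Clock.

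Leaving out each array in turn gave ranges that spanned 0 for the differences named next. Ranges on 1 side of 0 could be wide too, as for miR-126a-5p by genotype averaged over ages (-0.21 without wild-type 21-month replicate 2, -0.044 without wild-type 21-month replicate 1). For genotype at 4 months the ranges were -0.099 to 0.023 for miR-126a-3p and -0.013 to 0.057 for miR-145a-5p. For genotype at 21 months they were -0.27 to 0.062 for miR-126a-5p, -0.094 to 0.051 for miR-126a-3p and -0.097 to 0.080 for miR-222-3p. For genotype averaged over ages they were -0.067 to 0.0051 for miR-126a-3p, -0.086 to 0.0027 for miR-222-3p and -0.017 to 0.030 for miR-143-3p. For age in wild type they were -0.19 to 0.14 for miR-126a-5p and -0.022 to 0.063 for miR-143-3p, and for age in Clock -0.096 to 0.16 for miR-126a-5p and -0.13 to 0.015 for miR-126a-3p. For age averaged over genotypes the range was -0.088 to 0.078 for miR-126a-5p. For the interaction they were -0.12 to 0.21 for miR-126a-5p, -0.054 to 0.091 for miR-126a-3p, -0.023 to 0.15 for miR-222-3p and -0.0076 to 0.062 for miR-145a-5p.

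The background count of mature probe sets called, which was 1 for age in wild type, 2 for age in Clock and 2 for age averaged over genotypes, moved more. At an adjusted p under 0.10 these counts were 2, 4 and 17, and with the replicate block 0, 1 and 5, while the block changed no call of a vascular miRNA. Same-numbered arrays showed no strong pairing. Of 12 arrays, 5 correlated best with an array of their own number, a count for which no chance level was computed. Without variance moderation the counts were 0, 0 and 1, and without the 3 outlying young hearts 0, 0 and 0. Array weights gave 2 for age in wild type and 13 for age averaged over genotypes, quantile normalization 0 for age in wild type, and only the groups compared 0 for age in Clock. With single arrays left out, counts were 0 to 2 for age in wild type, 0 to 5 for age in Clock, 1 to 6 for age averaged over genotypes and 0 to 1 for genotype at 4 months.

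Of the 15 correlations between members, none passed under any alternative, and 6 changed sign. Without the 3 outlying young hearts, r was 0.239 for miR-126a-5p with miR-221-3p (-0.0381 as reported), -0.428 for miR-126a-5p with miR-145a-5p (0.0894), 0.382 for miR-126a-3p with miR-221-3p (-0.205), -0.487 for miR-126a-3p with miR-145a-5p (0.205) and 0.277 for miR-222-3p with miR-145a-5p (-0.278). The last was 0.188 after each group's mean was subtracted. For miR-143-3p with miR-145a-5p, r was -0.0749 without the 2 arrays farthest from the median of miR-143-3p. Signal over background is unknown here, so whether a small difference reflects a dim probe set could not be seen.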
